A study of Homo sapiens with 9 samples.

Results

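The 39 genes described here are 17 genes of the response to low oxygen and 22 genes of glycolysis, from glucose uptake to lactate export. They were taken by symbol from a given list, and all 39 are among the 26636 genes listed in all 9 expression tables. Of these 39 genes, 38 passed the minimum for testing, a mean of at least 1 FPKM (fragments scaled by transcript length and by mapped reads) over the 9 libraries, which 13014 genes passed in all. The gene below the minimum was ANKRD37, a short ankyrin repeat protein. The labels give BT549, an established breast cancer line of the triple-negative kind known for a mesenchymal phenotype, of wild-type genotype, as the source of every library. The cells were transfected with siWFDC21P-1, with siWFDC21P-2, both small interfering RNAs against the transcript of the pseudogene WFDC21P, or with the control siRNA siNC, and RNA was taken after 48 h. Each of the 3 groups holds 3 libraries. The values are sums over all transcripts of a gene, so forms made by splicing, such as those of PKM, cannot be seen, and isoenzyme use below means the use of separate genes of a family.

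In well-oxygenated cells, prolyl hydroxylases of the EGLN family mark the alpha subunits of the hypoxia-inducible factors (HIF1A and EPAS1) for destruction through the VHL protein. When oxygen is low the subunits persist, pair with ARNT and bind short DNA elements near genes for glucose uptake, glycolysis, acid handling, vessel growth and mitochondrial turnover. Many cancer cells run glycolysis at a high rate even with oxygen present, and most steps of the pathway can be filled by several isoenzymes encoded by separate genes. The regulation of the alpha subunits acts mainly on the protein, which was not measured here.

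WFDC21P (ENSG00000261040, on the minus strand of chromosome 17 from 60083566 to 60091885 in GRCh38) had 0.0629, 0.767 and 0.227 FPKM in siWFDC21P-1 replicates 1 to 3 and 4.13, 3.32 and 2.12 FPKM in siWFDC21P-2 replicates 1 to 3, against 3.08, 0.129 and 6.87 FPKM in siNC replicates 1 to 3. The siRNA groups overlapped the siNC group, siWFDC21P-1 through the library labelled siNC replicate 2 and siWFDC21P-2 through siNC replicates 1 and 2. The mean was 0.352 ± 0.368 FPKM with siWFDC21P-1 and 3.19 ± 1.01 FPKM with siWFDC21P-2, against 3.36 ± 3.38 FPKM with siNC (SD, n = 3 each; exact permutation test, two-sided, p = 0.3 and p = 1, where 0.1 is the smallest p this design allows). That test pools the 3 siNC libraries, which come from different backgrounds as described next. Against the siNC library of its own background, WFDC21P stood at 2.04, 24.9 and 176% in siWFDC21P-1 replicates 1 to 3, with 95% counting intervals of 0.244 to 7.58, 15.4 to 38.9 and 44.8 to 821%, and at 60.2, 48.3 and 30.9% in siWFDC21P-2 replicates 1 to 3. In siWFDC21P-1 replicate 3 the measured target level was thus not below the control. With 7 reads against 4 in its siNC library, the reads were too few to tell whether the target was lowered. The 9 libraries fell into 3 sets that share most of their expression profile, called backgrounds here. Background 1 holds siWFDC21P-1 replicates 1 and 2 and siNC replicate 1, background 2 holds siWFDC21P-1 replicate 3 and siNC replicate 2, and background 3 holds the 3 siWFDC21P-2 libraries and siNC replicate 3. Over 12914 genes, without the genes described here, Pearson's r was 0.927 to 0.986 between libraries of a background and 0.657 to 0.744 between backgrounds, as a description. Background 2 went against the labelled cell type: 5 epithelial markers (EPCAM, CDH1, KRT8, KRT18, KRT19) summed to 951 to 1560 FPKM there, 174 to 383 FPKM in background 1 and 6.49 to 10.0 FPKM in background 3. The 5 mesenchymal markers (VIM, CDH2, FN1, ZEB1, THY1) summed to 6.44 to 12.0, 47.4 to 49.3 and 294 to 412 FPKM in backgrounds 2, 1 and 3, and CDH2 was at 0 or 1 read and THY1 at 0 to 3 reads in every library of backgrounds 1 and 2. Background 1 too therefore had more epithelial than mesenchymal marker FPKM, but nearly all of the epithelial part was KRT8 and KRT18. EPCAM, CDH1 and KRT19 had only 0 to 15 reads in the libraries of background 1, where VIM had 38.5 to 41.0 FPKM. No siWFDC21P-1 library lies in the background whose markers were mainly mesenchymal. The leukocyte markers PTPRC and CD14 summed to at most 36.1 FPKM, nearly all of it CD14 in background 2, and 3 endothelial markers to at most 1.68 FPKM. The libraries hold 28.1 to 29.7 M reads in backgrounds 1 and 2 and 16.3 to 17.4 M reads in background 3, as read from the steps of the low values, and background 3 is also the set with another naming style and another gene table, so that depth, table and cells cannot be told apart there. Because each background holds a single siNC library, a change against the siNC of the same background rests on that 1 control library.

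Promoter windows of 300 bases, from 250 bases before to 50 bases after a RefSeq start (GRCh38.p14), were available for 35 of the 39 genes, with 63 windows in all. The DNA core that hypoxia-inducible factors bind is ACGTG or GCGTG, searched on both strands, so that CACGT and CACGC also count; the letters CACGTG hold ACGTG on both strands. ACGTG was in 39.7% of the 63 windows and in 21.4% of all 35116 windows of the table, and GCGTG in 41.3% and 36.5%. Any window listed more than once was counted once for the 35 genes, but not for the whole table. Windows of 1 gene can overlap, as in HK1 and PFKM, so these shares are only a description. Below are the windows of PFKL and PFKFB4, which lay on one side of the siNC library of their own background in all 6 siRNA libraries. Of all tested genes, 10.8% lay above it in all 6, as PFKL did, and 7.92% below it, as PFKFB4 did. The windows of CA9, CA12 and ENO2, which stood apart in background 3, are also given. Capitals mark the matches, the sequences run 5′ to 3′ on the strand of the gene, and a match is not a measured binding site.
PFKL, chr21:44299803-44300102, plus strand: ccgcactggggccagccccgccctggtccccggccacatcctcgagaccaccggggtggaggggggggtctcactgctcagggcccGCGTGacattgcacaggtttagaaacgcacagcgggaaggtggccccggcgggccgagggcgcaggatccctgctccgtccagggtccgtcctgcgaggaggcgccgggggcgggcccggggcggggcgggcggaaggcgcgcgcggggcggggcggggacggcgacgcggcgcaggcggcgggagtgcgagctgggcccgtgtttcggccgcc
PFKFB4, chr3:48556754-48557053, minus strand: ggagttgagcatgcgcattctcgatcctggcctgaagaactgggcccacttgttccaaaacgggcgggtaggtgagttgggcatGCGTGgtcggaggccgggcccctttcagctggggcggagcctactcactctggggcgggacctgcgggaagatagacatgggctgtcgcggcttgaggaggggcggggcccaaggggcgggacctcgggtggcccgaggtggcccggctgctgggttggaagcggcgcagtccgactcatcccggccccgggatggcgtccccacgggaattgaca
CA9, chr9:35673678-35673977, plus strand: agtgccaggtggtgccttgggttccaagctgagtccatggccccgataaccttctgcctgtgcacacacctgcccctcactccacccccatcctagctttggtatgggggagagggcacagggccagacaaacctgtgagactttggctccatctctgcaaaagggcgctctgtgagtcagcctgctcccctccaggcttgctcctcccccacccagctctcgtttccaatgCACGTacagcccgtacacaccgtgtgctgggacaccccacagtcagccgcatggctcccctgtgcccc
CA12, chr15:63381797-63382096, minus strand: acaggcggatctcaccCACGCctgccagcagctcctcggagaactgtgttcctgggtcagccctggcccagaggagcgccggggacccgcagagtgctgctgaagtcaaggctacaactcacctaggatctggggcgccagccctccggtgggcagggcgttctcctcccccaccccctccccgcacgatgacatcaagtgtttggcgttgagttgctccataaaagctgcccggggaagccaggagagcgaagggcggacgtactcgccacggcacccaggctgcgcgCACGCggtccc
ENO2, chr12:6914330-6914629, plus strand: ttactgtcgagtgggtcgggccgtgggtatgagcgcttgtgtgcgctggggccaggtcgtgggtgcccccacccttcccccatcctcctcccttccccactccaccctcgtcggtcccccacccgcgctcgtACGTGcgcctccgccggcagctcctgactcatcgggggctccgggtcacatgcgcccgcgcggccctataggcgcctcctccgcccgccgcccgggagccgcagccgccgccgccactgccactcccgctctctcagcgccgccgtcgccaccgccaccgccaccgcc
PFKL, PFKFB4 and both CA12 matches were GCGTG, and those of CA9 and ENO2 were ACGTG. Of the other 4 genes on one side of their control in all 6 siRNA libraries, PGAM1 had no match, BNIP3 had 2 ACGTG and 4 GCGTG matches, and PDK1 and SLC16A3 had windows with and without a match.

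As a share of reads, both classes were below the siNC of their background with siWFDC21P-1 and above it with siWFDC21P-2. The 22 glycolysis genes together took 1.48, 1.34 and 1.00% of the reads in siWFDC21P-1 replicates 1 to 3 and 1.02, 1.37 and 1.30% in siWFDC21P-2 replicates 1 to 3, against 1.67, 1.36 and 0.957% in siNC replicates 1 to 3. In the glycolysis genes the siWFDC21P-2 library closest to its control was replicate 1, and in the hypoxia genes it was replicate 3. The 17 hypoxia genes took 0.161, 0.143 and 0.133% of the reads in the siWFDC21P-1 libraries and 0.213, 0.224 and 0.193% in the siWFDC21P-2 libraries, against 0.187, 0.165 and 0.183% with siNC. In bulk RNA, fewer cells of a kind and less of a transcript per cell cannot be told apart.

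**Figure D1:**
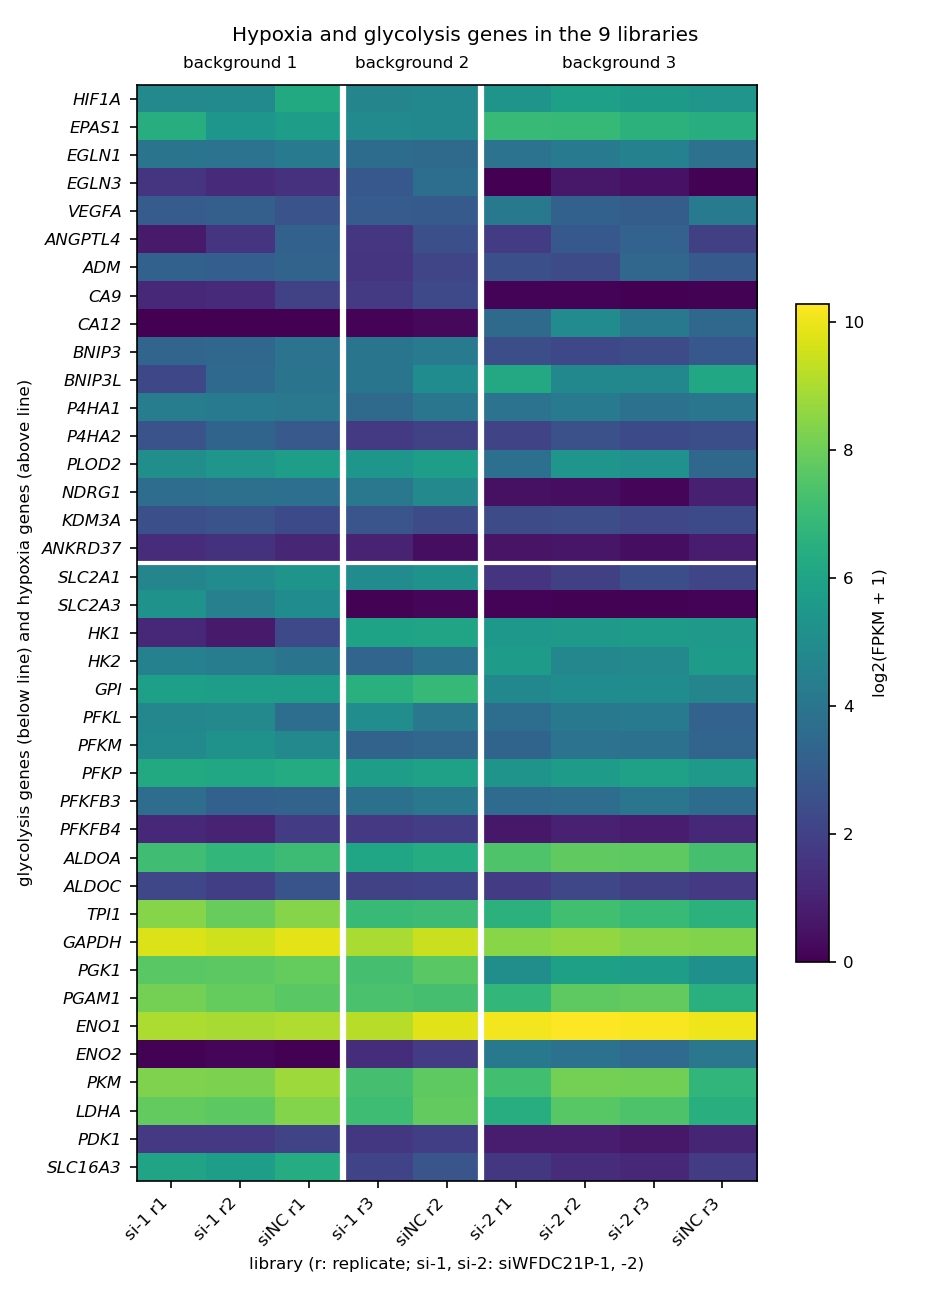
Level of each of the 39 genes as log2(FPKM + 1) (colour) in each of the 9 libraries (columns), with white lines between the 3 backgrounds and between hypoxia genes (top) and glycolysis genes (bottom). SLC2A3 and SLC16A3 are high in background 1, EGLN3 in background 2 and CA12 and ENO2 in background 3, where SLC2A1 and NDRG1 are low.

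Many of these genes had levels bound to a background. For 10 of the 38 tested genes, every library of 1 background was above or below every library of both other backgrounds by at least 1 on the log2(FPKM + 1) scale, and 16.7% of all tested genes met this. Background 1 stood apart upwards in SLC2A3 and SLC16A3 (2 genes, 2.49% of all genes) and downwards in HK1 and ENO2 (2 genes, 2.38% of all). Background 2 stood apart upwards in EGLN3 (1 gene, 4.1% of all), and downwards in none of the 38 (2.24% of all). Background 3 stood apart upwards in CA12 and ENO2 (2 genes, 3.73% of all) and downwards in CA9, NDRG1, SLC2A1 and PGK1 (4 genes, 2.88% of all). As the backgrounds were found in these data, their levels are given with no test, and the part of the cell markers in them was not tested.

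Among the oxygen sensors and factors, EPAS1 made up 66.8 to 76.4% of the HIF-alpha FPKM in background 3, 41.5 to 75.2% in background 1 and 49.8 to 53.4% in background 2. EPAS1, the HIF-2 alpha subunit, had 84.6 and 41.4 FPKM in siWFDC21P-1 replicates 1 and 2, against 52.7 FPKM in siNC replicate 1, and 28.5 FPKM in siWFDC21P-1 replicate 3, against 26.5 FPKM in siNC replicate 2. The siWFDC21P-2 libraries held 126, 117 and 96.5 FPKM, against 84.3 FPKM in siNC replicate 3. All 3 siWFDC21P-2 libraries were above their control, while the siWFDC21P-1 libraries lay on both sides. HIF1A, the HIF-1 alpha subunit, had 27.9 and 28.3 FPKM in siWFDC21P-1 replicates 1 and 2, against 74.3 FPKM in siNC replicate 1, which is 37.6 and 38.1% of the control (95% counting interval 36.27 to 38.95 and 36.79 to 39.48%). In background 2 it had 24.9 FPKM with siWFDC21P-1 against 26.8 FPKM with siNC. Background 3 held 38.9, 55.4 and 47.9 FPKM with siWFDC21P-2 against 39.7 FPKM with siNC. The high HIF1A level of siNC replicate 1 was not met in any other library. EGLN1, the main HIF prolyl hydroxylase, ran from 10.7 to 21.9 FPKM over the 9 libraries. It was above its control in all 3 siWFDC21P-2 libraries, at 107, 135 and 164%, and on both sides with siWFDC21P-1. EGLN3, a hydroxylase that is itself a HIF target, had 6.21 FPKM with siWFDC21P-1 and 12.3 FPKM with siNC in background 2, 1.35 to 1.97 FPKM in background 1 and 0.00781 to 0.577 FPKM in background 3. It made up 33.7 to 51.4% of the EGLN1, EGLN2 and EGLN3 sum in background 2 and at most 11.3% elsewhere.

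The secreted factors moved in unlike ways. VEGFA, the vascular endothelial growth factor, had 6.99 and 7.57 FPKM in siWFDC21P-1 replicates 1 and 2, against 5.14 FPKM in siNC replicate 1, and 7.01 FPKM in siWFDC21P-1 replicate 3, against 6.62 FPKM in siNC replicate 2. The siWFDC21P-2 libraries held 17.0, 8.23 and 7.20 FPKM, against 18.1 FPKM in siNC replicate 3. Each siWFDC21P-1 library was thus above and each siWFDC21P-2 library below its control, and replicate 1 of siWFDC21P-2 was by far the closest to it. ANGPTL4, a secreted inhibitor of lipoprotein lipase, had 0.655 and 1.89 FPKM in siWFDC21P-1 replicates 1 and 2, against 8.17 FPKM in siNC replicate 1, and 2.06 FPKM in siWFDC21P-1 replicate 3, against 4.73 FPKM in siNC replicate 2. These levels were 8.01, 23.1 and 43.7% of the controls (95% counting interval 5.82 to 10.8, 19.1 to 27.8 and 35.7 to 53.2%). With siWFDC21P-2 ANGPTL4 had 2.46, 6.12 and 8.42 FPKM, against 2.89 FPKM in siNC replicate 3, with libraries on both sides. ADM, the vasodilator peptide adrenomedullin, was below its control in all 3 siWFDC21P-1 libraries and on both sides with siWFDC21P-2, between 1.90 and 9.59 FPKM over all libraries.

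The carbonic anhydrases, membrane enzymes that turn carbon dioxide into bicarbonate and acid outside the cell, replaced each other between backgrounds. CA9 made up 99.3 to 100% of the pair's FPKM in background 1, 96 to 96.8% in background 2 and at most 0.633% in background 3, where CA12 took its place. CA9 had 1.28 and 1.31 FPKM in siWFDC21P-1 replicates 1 and 2, against 3.07 FPKM in siNC replicate 1, and 2.34 FPKM in siWFDC21P-1 replicate 3, against 3.81 FPKM in siNC replicate 2. All 3 siWFDC21P-1 libraries were below their control, at 41.8, 42.7 and 61.5% of it (95% counting interval 30.6 to 56.5, 31.4 to 57.5 and 48.1 to 78.4%). In background 3 CA9 had 0.0689, 0.0716 and 0 FPKM with siWFDC21P-2, where 3 reads would have been 0.105 FPKM, against 0.0367 FPKM with siNC. These are too few reads to compare. CA12 had 10.8, 30.5 and 17.1 FPKM with siWFDC21P-2, against 9.74 FPKM with siNC, at 111, 313 and 175% of the control (95% counting interval 103 to 120, 293 to 335 and 163 to 188%). In backgrounds 1 and 2 it did not pass 0.159 FPKM, and it was at 0 in siWFDC21P-1 replicate 2 and siNC replicate 1, where 3 reads would have been 0.0138 and 0.014 FPKM.

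Of the mitophagy receptors, BNIP3 was lower than its control in every siRNA library, as were 7.92% of all tested genes. BNIP3, a mitochondrial outer membrane protein that marks mitochondria for removal, had 9.18 and 10.3 FPKM in siWFDC21P-1 replicates 1 and 2, against 14.1 FPKM in siNC replicate 1, and 14.8 FPKM in siWFDC21P-1 replicate 3, against 17.3 FPKM in siNC replicate 2. It had 4.57, 3.65 and 4.13 FPKM with siWFDC21P-2, against 5.85 FPKM in siNC replicate 3. The 6 siRNA libraries stood at 62.3 to 85.7% of the control of their background. Among the siNC libraries the distance was larger, with 5.85 FPKM in background 3 against 14.1 and 17.3 FPKM in backgrounds 1 and 2. BNIP3L, its close relative, had 3.69 and 10.3 FPKM in siWFDC21P-1 replicates 1 and 2, against 14.7 FPKM in siNC replicate 1, and 14.9 FPKM in siWFDC21P-1 replicate 3, against 30.7 FPKM in siNC replicate 2. It had 72.9, 27.0 and 27.0 FPKM with siWFDC21P-2, against 68.8 FPKM in siNC replicate 3. Only siWFDC21P-2 replicate 1 was not below its control, and the other 5 libraries stood at 25.2 to 70.2%. BNIP3L made up 86.7 to 94.1% of the pair's FPKM in background 3 and 28.7 to 64% in the others.

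Among the enzymes that modify collagen, PLOD2 stood on opposite sides of its controls with the siRNAs. PLOD2, which hydroxylates collagen lysines, had 33.2 and 39.6 FPKM in siWFDC21P-1 replicates 1 and 2, against 54.0 FPKM in siNC replicate 1, and 41.2 FPKM in siWFDC21P-1 replicate 3, against 52.2 FPKM in siNC replicate 2. It had 12.5, 39.8 and 36.0 FPKM with siWFDC21P-2, against 9.96 FPKM in siNC replicate 3. PLOD2 was therefore below its control in all 3 siWFDC21P-1 libraries, at 61.5 to 79.0%, and above it in all 3 siWFDC21P-2 libraries, at 125, 399.6 and 362%. The collagen prolyl hydroxylases P4HA1 and P4HA2 lay on both sides with each siRNA, and P4HA1 was the larger of the pair in every library, at 65.5 to 83.4% of their FPKM. Among the remaining targets, NDRG1, a stress-response protein linked to differentiation, differed between backgrounds, with 11.7 and 12.9 FPKM with siWFDC21P-1 and 12.6 FPKM with siNC in background 1, and 16.2 FPKM with siWFDC21P-1 and 27.7 FPKM with siNC in background 2. In background 3 it had 0.392, 0.286 and 0.130 FPKM with siWFDC21P-2, against 0.862 FPKM with siNC, at 45.5, 33.2 and 15.1% of the control. KDM3A, a histone H3 lysine demethylase, stayed between 3.62 and 5.49 FPKM in all 9 libraries. ANKRD37, the untested gene, was above its control in the 3 siWFDC21P-1 libraries and below it in the 3 siWFDC21P-2 libraries, from 0.315 to 1.82 FPKM in all.

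**Figure D2:**
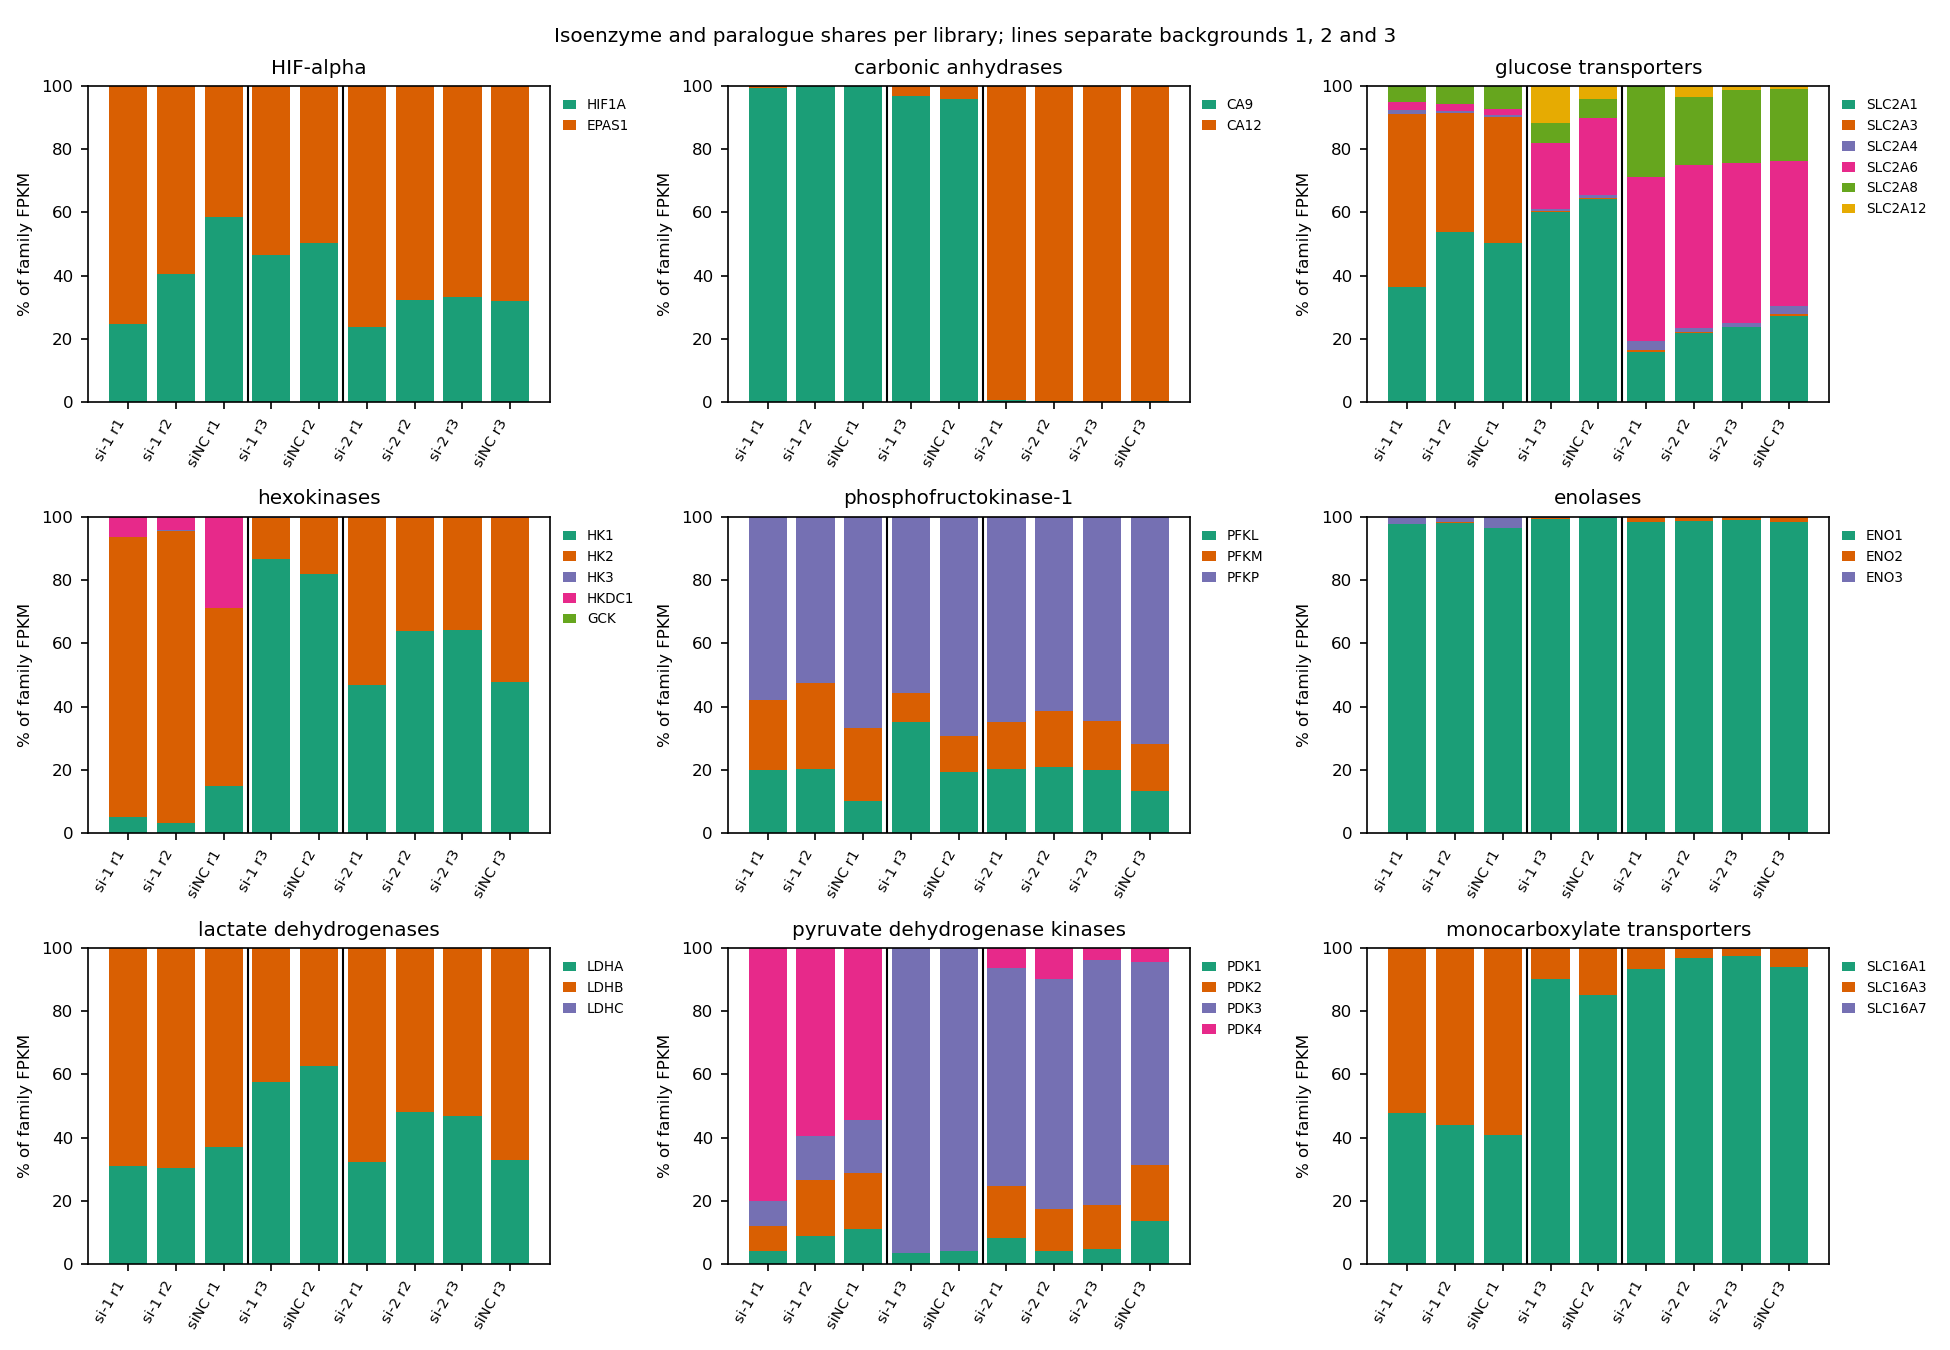
Share of each gene in the summed FPKM of its family (bars, %) in each of the 9 libraries, for 9 families, with lines between the backgrounds. CA9 gives way to CA12 in background 3. HK1 has its lowest share in background 1 and its highest in background 2, with background 3 between them. SLC2A3 and SLC16A3 are prominent in background 1. PFKL takes a larger share in each siRNA library than in the siNC library of its background.

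The glucose transporter genes differed between backgrounds in level and in share. SLC2A1 (GLUT1), the widespread glucose transporter, had 24.5 and 30.4 FPKM with siWFDC21P-1 and 39.04 FPKM with siNC in background 1, and 29.8 FPKM with siWFDC21P-1 and 37.4 FPKM with siNC in background 2. It had 1.90, 2.85 and 4.58 FPKM with siWFDC21P-2, against 3.46 FPKM with siNC in background 3. All 3 siWFDC21P-1 libraries were below their control, at 62.7 to 79.6%, and the siWFDC21P-2 libraries lay on both sides. SLC2A3 (GLUT3), a high-affinity transporter known from neurons, had 37.1 and 21.3 FPKM with siWFDC21P-1 and 31.1 FPKM with siNC in background 1, and did not exceed 0.109 FPKM in backgrounds 2 and 3. It made up 37.6 to 54.9% of the FPKM of 6 measured transporter genes in background 1, and in background 3 the largest share, 46.1 to 51.7%, belonged to SLC2A6, a lysosomal member of the family.

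Hexokinases catalyse the first step, and the shares of HK1 and HK2 differed between backgrounds. HK1 had 1.24 and 0.677 FPKM in siWFDC21P-1 replicates 1 and 2, against 3.87 FPKM in siNC replicate 1, but 60.7 FPKM with siWFDC21P-1, against 62.5 FPKM with siNC, in background 2. In background 3 it had 43.1, 46.3 and 50.5 FPKM with siWFDC21P-2, against 46.2 FPKM with siNC. HK1 thus made up 3.22 to 15% of hexokinase FPKM in background 1, 82 to 86.8% in background 2 and 46.8 to 64.2% in background 3. HK2, the form most often tied to tumour glycolysis, had 21.8 and 19.5 FPKM with siWFDC21P-1, against 14.5 FPKM with siNC, in background 1, and 9.14 FPKM with siWFDC21P-1, against 13.7 FPKM with siNC, in background 2. It had 48.9, 25.8 and 28.0 FPKM with siWFDC21P-2, against 50.4 FPKM with siNC. In background 1 HK2 was above and HK1 below the control, while HKDC1, a further hexokinase, had 1.53 and 0.894 FPKM with siWFDC21P-1 and 7.42 FPKM with siNC.

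Phosphofructokinase-1 is the committed step, and 1 of its 3 genes was above its control in every siRNA library, as were 10.8% of all tested genes. PFKL (ENSG00000141959, chromosome 21, 44300051 to 44327376, plus strand), the liver-type subunit, had 25.9 and 27.5 FPKM in siWFDC21P-1 replicates 1 and 2, against 12.0 FPKM in siNC replicate 1, and 32.4 FPKM in siWFDC21P-1 replicate 3, against 16.4 FPKM in siNC replicate 2. With siWFDC21P-2 it had 12.3, 16.7 and 17.8 FPKM, against 8.50 FPKM in siNC replicate 3. All 6 siRNA libraries were above the control of their background, at 215, 228, 198, 145, 197 and 209% of it, with 95% counting intervals between 135% and 238%. The siRNA and siNC groups as a whole overlapped, because the levels also differed between backgrounds. The share of PFKL among the 3 phosphofructokinase-1 genes was 10.1 to 20.4% in background 1, 19.3 to 35% in background 2 and 13.5 to 21% in background 3, with the siNC library lowest each time. PFKP, the platelet-type subunit, was the largest in all libraries, at 52.6 to 71.7%, and its FPKM differed less from the controls, at 87.2 to 127% of them. PFKM, the muscle type, had 27.6 to 36.5 FPKM in background 1 and 8.57 to 14.0 FPKM in the others.

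The bifunctional enzymes that set the level of fructose-2,6-bisphosphate, an activator of phosphofructokinase-1, did not move together. PFKFB4 had 1.22 and 1.01 FPKM in siWFDC21P-1 replicates 1 and 2, against 2.58 FPKM in siNC replicate 1, and 2.23 FPKM in siWFDC21P-1 replicate 3, against 2.68 FPKM in siNC replicate 2. With siWFDC21P-2 it had 0.603, 0.930 and 0.743 FPKM, against 1.20 FPKM in siNC replicate 3. All 6 libraries were below their control, at 39.2 to 83.3% of it, and the counting interval of siWFDC21P-2 replicate 2 reached 103%. PFKFB3, the largest form at 53.5 to 85.4% of the family's FPKM in 8 libraries and at 41.7% in siNC replicate 1, where PFKFB2 had 9.68 FPKM and PFKFB3 8.80 FPKM, lay on both sides of the controls.

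In the middle of the pathway most levels were high. GAPDH, the glyceraldehyde-3-phosphate dehydrogenase often used as a loading control, had 865 and 754 FPKM in siWFDC21P-1 replicates 1 and 2, against 937 FPKM in siNC replicate 1, and 503 FPKM in siWFDC21P-1 replicate 3, against 703 FPKM in siNC replicate 2. It had 346, 394 and 342 FPKM with siWFDC21P-2, against 326 FPKM in siNC replicate 3. Every library of background 3 was below every library of the others. The siWFDC21P-1 libraries were below and the siWFDC21P-2 libraries above their controls, but siWFDC21P-2 replicate 3 was not after median-ratio scaling. PGK1, the first ATP-forming step, had 150 to 228 FPKM in backgrounds 1 and 2 and 32.5 to 56.2 FPKM in background 3. GPI, which interconverts the hexose phosphates, was highest in background 2, with 90.1 FPKM with siWFDC21P-1 and 117 FPKM with siNC, against 24.6 to 55.0 FPKM elsewhere. ALDOA, the main aldolase, was at 95.7 to 98.6% of aldolase FPKM in every library, and TPI1, the triosephosphate isomerase, ran from 95.6 to 344 FPKM with its highest values in background 1. ALDOC, the brain-type aldolase, stayed between 2.22 and 5.35 FPKM, below its control in the 3 siWFDC21P-1 libraries and above it in the 3 siWFDC21P-2 libraries.

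PGAM1, the phosphoglycerate mutase, was the other gene above its control in all 6 libraries, where 10.8% of all tested genes lay. It had 277 and 227 FPKM in siWFDC21P-1 replicates 1 and 2, against 203 FPKM in siNC replicate 1, and 158 FPKM in siWFDC21P-1 replicate 3, against 149.95 FPKM in siNC replicate 2. The siWFDC21P-2 libraries held 110, 215 and 226 FPKM, against 90.1 FPKM in siNC replicate 3. The libraries ran from 106% of the control in siWFDC21P-1 replicate 3 to 250.5% in siWFDC21P-2 replicate 3. ENO1, the ubiquitous enolase and the highest of the 39 genes in backgrounds 2 and 3, had 524, 483 and 576 FPKM with siWFDC21P-1 and 1092, 1245 and 1165 FPKM with siWFDC21P-2, against 537, 895 and 1050.4 FPKM with siNC. ENO2, the neuronal enolase, had 16.6, 13.5 and 11.0 FPKM with siWFDC21P-2 and 15.8 FPKM with siNC in background 3, and 0.00799 to 2.42 FPKM in the others. Even there it was at most 1.5% of enolase FPKM.

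Of the enzymes that make pyruvate and lactate, PKM lay on opposite sides of its controls with the siRNAs. PKM, the pyruvate kinase, had 313 and 302 FPKM in siWFDC21P-1 replicates 1 and 2, against 435 FPKM in siNC replicate 1, and 152 FPKM in siWFDC21P-1 replicate 3, against 211 FPKM in siNC replicate 2. The siWFDC21P-2 libraries held 143, 283 and 270 FPKM, against 109 FPKM in siNC replicate 3. The siWFDC21P-1 libraries were at 69.4 to 72.1% and the siWFDC21P-2 libraries at 131 to 260% of their control. LDHA, the lactate dehydrogenase subunit that favours lactate formation, had 225 and 208 FPKM in siWFDC21P-1 replicates 1 and 2, against 335 FPKM in siNC replicate 1, and 135 FPKM in siWFDC21P-1 replicate 3, against 223 FPKM in siNC replicate 2. In background 3 it had 83.2, 196 and 172 FPKM with siWFDC21P-2, against 85.3 FPKM in siNC replicate 3. Here siWFDC21P-2 replicate 1 was level with its control, at 97.5%, and replicates 2 and 3 were at 229 and 201%. LDHA was the larger lactate dehydrogenase gene in background 2, at 57.5 to 62.8% of the family, while LDHB, the heart-type subunit, was larger in backgrounds 1 and 3, at 51.8 to 69.6%.

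PDK1 and SLC16A3 were below their control in all 6 siRNA libraries, as were 7.92% of all tested genes. PDK1, a kinase that inhibits pyruvate dehydrogenase, had 2.28 and 2.25 FPKM in siWFDC21P-1 replicates 1 and 2, against 3.32 FPKM in siNC replicate 1. In siWFDC21P-1 replicate 3 it had 2.17 FPKM, against 2.79 FPKM in siNC replicate 2. It had 0.730, 0.735 and 0.594 FPKM with siWFDC21P-2, against 1.07 FPKM in siNC replicate 3. The 6 libraries stood at 55.5 to 77.7% of their control. PDK1 was a small part of its family everywhere, at 3.63 to 13.8% of the FPKM, with PDK4 in first place in background 1 (54.5 to 80.2%) and PDK3 in backgrounds 2 (95.9 to 96.3%) and 3 (64.4 to 77.6%). SLC16A3 (MCT4, ENSG00000141526, chromosome 17, 82228397 to 82261129, plus strand), which exports lactate, had 62.4 and 52.1 FPKM in siWFDC21P-1 replicates 1 and 2, against 82.5 FPKM in siNC replicate 1, and 3.18 FPKM in siWFDC21P-1 replicate 3, against 5.61 FPKM in siNC replicate 2. It had 2.199, 1.45 and 1.21 FPKM with siWFDC21P-2, against 2.49 FPKM in siNC replicate 3. The 6 libraries stood at 48.6 to 88.3% of their control, with the counting interval of siWFDC21P-2 replicate 1 reaching 103%. SLC16A3 made up 52.3 to 59.2% of the monocarboxylate transporter FPKM in background 1 and 2.35 to 14.7% in the others, where SLC16A1 (MCT1) took 85.2 to 97.4%.

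**Figure D3:**
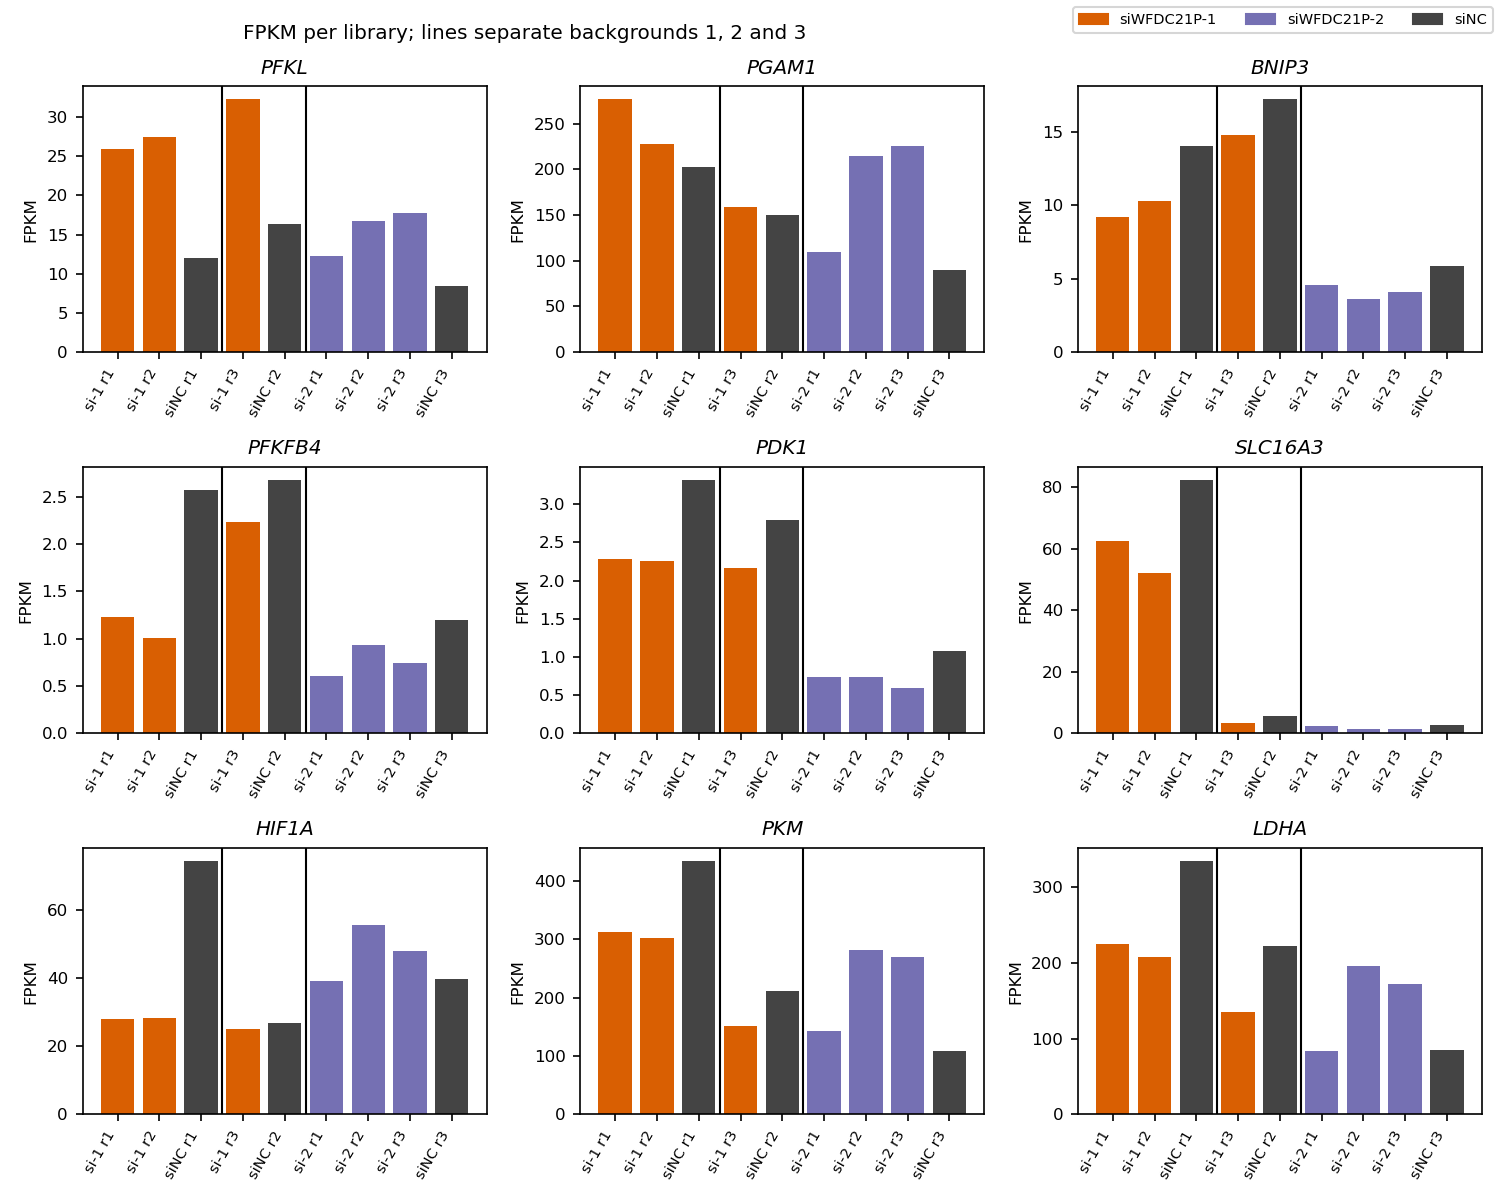
FPKM of 9 of the genes (bars, 1 per library; orange siWFDC21P-1, violet siWFDC21P-2, grey siNC; lines separate the backgrounds). PFKL and PGAM1 are above the siNC bar of their background in all 6 siRNA libraries (2 of 38 genes, 10.8% of all tested genes). BNIP3, PFKFB4, PDK1 and SLC16A3 are below it in all 6 (4 of 38 genes, 7.92% of all tested genes). PKM is below with siWFDC21P-1 and above with siWFDC21P-2.

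The change with siWFDC21P-1 was set against the siNC library of the same background in a linear model with group and background as terms (limma on log2(FPKM + 1), Benjamini-Hochberg adjustment over all 13014 genes). None of the 38 tested genes passed an adjusted p of 0.05, and 0.0231% of all tested genes did. With voom, limma's fit for counts, on the recovered reads, none of the 38 and 0.2% of all tested genes were called. At an unadjusted p under 0.05, 1 of the 38 was higher, PFKL, against 8.69% of all tested genes, and 6 were lower, CA9, ANGPTL4, SLC16A3, HIF1A, PFKFB4 and HK1, against 5.06% of all. The fitted log2 fold change was 1.02 ± 0.19 for PFKL (SE; adjusted p = 0.113, limma), -0.70 ± 0.15 for CA9 (0.139), -1.57 ± 0.48 for ANGPTL4 (0.238), -0.58 ± 0.21 for SLC16A3 (0.279) and -0.83 ± 0.30 for HIF1A (0.284), each with all 3 libraries on the side of its sign. The values of HIF1A and ANGPTL4 depended on background 1, whose only control is siNC replicate 1: without that library they were -0.10 and -0.90. Replicates 1 and 2 of siWFDC21P-1 then have no control, so these values come from the pair in background 2 alone. This holds for any siWFDC21P-1 change fitted without siNC replicate 1. With 1 library left out, HIF1A ran from -1.37 to -0.10 and ANGPTL4 from -2.07 to -0.90. The direction over all 38 was mostly down: 19 genes were below the siNC of their background in all 3 libraries, against 20.7% of all tested genes, and 4 were above it in all 3, against 27.9% of all. The 4 were VEGFA, KDM3A, PFKL and PGAM1. The median fitted log2 fold change was -0.30 over the 38 genes, -0.34 over the 16 tested hypoxia genes and -0.23 over the 22 glycolysis genes, against 0.03 over all tested genes. Without the 2 libraries of background 2, which had the highest epithelial marker sums, 20 of the 38 were below and 9 above their control in both remaining libraries, against 32.8% and 39.3% of all tested genes. The epithelial marker sum moved with this comparison, with 174, 195 and 951 FPKM in siWFDC21P-1 replicates 1 to 3, against 383 FPKM in siNC replicate 1 and 1560 FPKM in siNC replicate 2. Of the 5 markers, KRT8 and KRT18 were below the control in all 3 libraries. CDH1 was above it in all 3, in background 1 with only 9 and 15 reads against 5. KRT19 had 474 FPKM in siWFDC21P-1 replicate 3, against 925 FPKM in siNC replicate 2, and at most 5 reads in background 1. EPCAM was at 0 in siNC replicate 1. The part of these markers in the result was not tested.

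With siWFDC21P-2, which is compared with siNC replicate 3 alone, none of the 38 genes passed, as did 0% of all tested genes (limma; 0 genes by voom too). At an unadjusted p under 0.05, 3 of the 38 were higher, PFKL, PKM and PGAM1, against 2.89% of all tested genes. None was lower, against 306 of the 13014 tested genes. The fitted log2 fold change was 0.79 ± 0.24 for PFKL, 1.02 ± 0.38 for PKM, 0.95 ± 0.40 for PGAM1, 1.32 ± 0.56 for PLOD2 and -0.56 ± 0.26 for NDRG1 (SE; limma, adjusted p = 0.756 for each). Above the control in all 3 libraries were 12 of the 38, against 26.9% of all tested genes, among them EPAS1, CA12, PLOD2, GPI, ALDOA, PGAM1, ENO1 and PKM. Below it in all 3 were 8 genes, against 26% of all: VEGFA, BNIP3, NDRG1, SLC2A3, HK2, PFKFB4, PDK1 and SLC16A3. SLC2A3 was at 0.0283 to 0.0697 FPKM there, too few reads to compare. The median fitted log2 fold change was 0.14 over the 38 genes, against 0.02 over all tested genes.

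By the median, replicate 1 of siWFDC21P-2 lay closer to its control than replicates 2 and 3, in these genes and in the rest. This did not hold for each gene: in EPAS1, SLC2A1, PFKFB4 and P4HA2 replicate 1 was the farthest of the 3. Over the 38 genes its median absolute log2 difference from siNC replicate 3 was 0.124, against 0.513 and 0.438 in replicates 2 and 3, and over all tested genes 161 differed by more than 1, against 1229 and 1105. The 5 mesenchymal markers summed to 412, 294 and 335 FPKM in siWFDC21P-2 replicates 1 to 3, against 409 FPKM in siNC replicate 3. VIM and ZEB1 were below and FN1 and THY1 above the control in all 3 libraries. CD14, a monocyte marker, was also above it in all 3, with 1.98, 6.97 and 8.70 FPKM with siWFDC21P-2 against 1.11 FPKM with siNC, while PTPRC stayed at or below 0.16 FPKM. The part of these markers in the result was not tested. Without replicate 1 of siWFDC21P-2, 6 of the 38 genes passed in the siWFDC21P-2 comparison, against 6.81% of all tested genes. These were PLOD2 (log2 fold change 1.83 ± 0.19, adjusted p = 0.00921), PKM (1.34 ± 0.16, 0.0122), PGAM1 (1.28 ± 0.19, 0.0209), LDHA (1.09 ± 0.17, 0.0229) and PFKL (0.94 ± 0.16, 0.0278), which were higher, and VEGFA (-1.14 ± 0.20, 0.0292), which was lower (limma, SE). In that fit PFKL also passed with siWFDC21P-1 (1.02 ± 0.12, adjusted p = 0.0347, limma), as 1 of 38 genes, against 1.16% of all. That fit holds only 2 siWFDC21P-2 libraries, and it is given because replicate 1 stood apart in these same genes, so its calls are not independent of that.

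**Figure D4:**
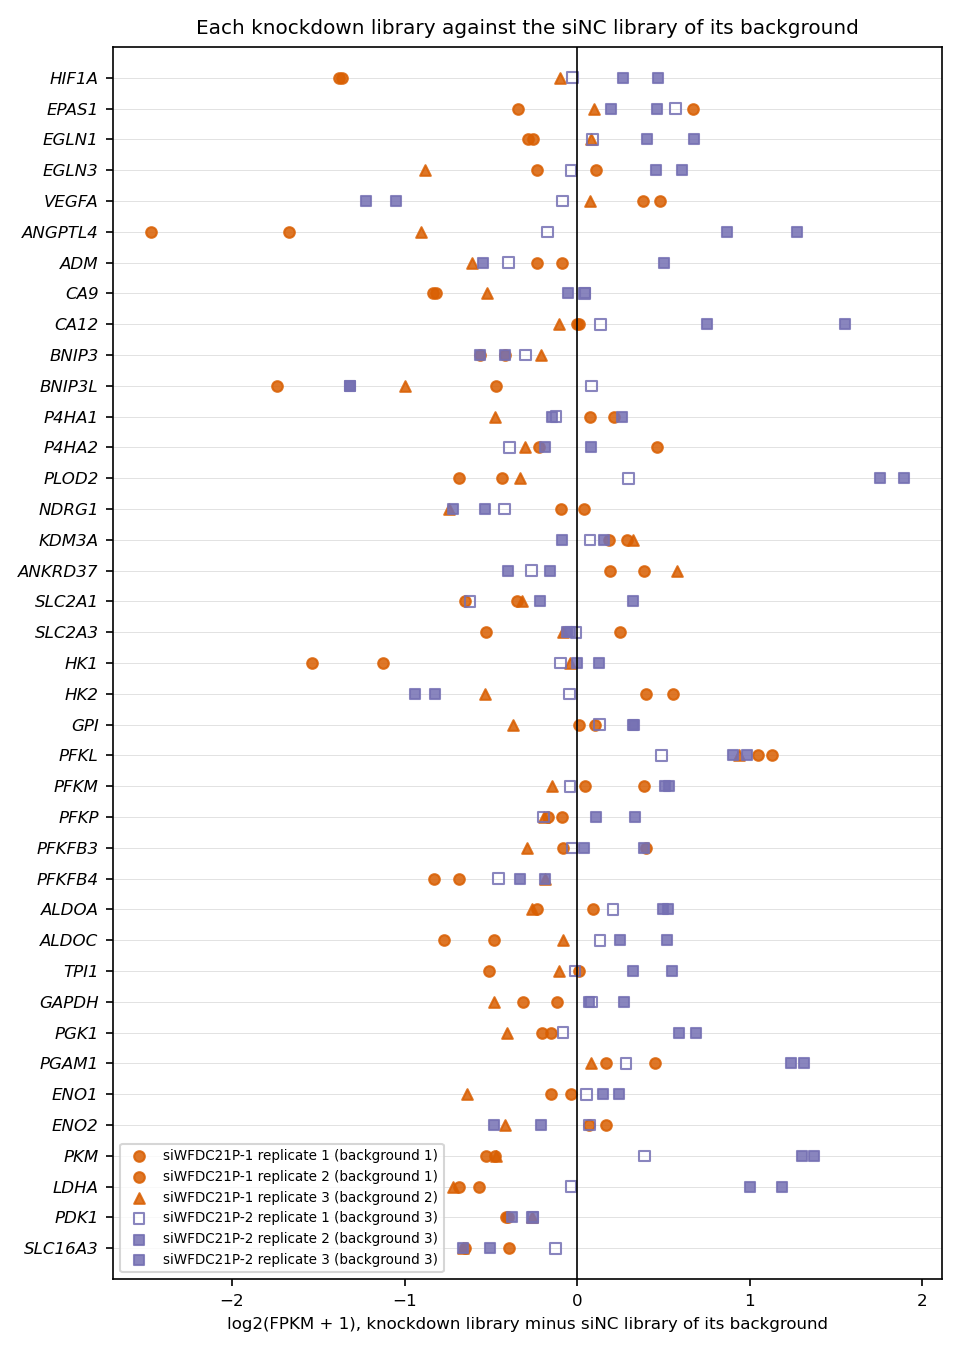
Difference of each siRNA library from the siNC library of its background, on the log2(FPKM + 1) scale (x axis), for the 39 genes (rows); circles background 1, triangles background 2, squares background 3, with siWFDC21P-2 replicate 1 drawn open. Most open squares lie close to 0, with SLC2A1 (-0.62) and EPAS1 (0.57) farthest from it. PFKL is above 0 in all 6 libraries, and PKM and PLOD2 lie below 0 with siWFDC21P-1 and above 0 with siWFDC21P-2.

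Both siRNAs were also averaged, giving each siRNA equal weight. None of the 38 genes passed, against 0.0154% of all tested genes (limma; by voom also 0 of 38 and 0.0154% of all). At an unadjusted p under 0.05, 1 was higher, against 8.22% of all, and 7 were lower, against 4.8% of all. PFKL was higher (log2 fold change 0.91 ± 0.15, adjusted p = 0.155), and SLC16A3 (-0.51 ± 0.16, 0.313), BNIP3 (-0.40 ± 0.13, 0.320), CA9 (-0.34 ± 0.12, 0.336) and PFKFB4 (-0.42 ± 0.15, 0.341) had the next smallest p (limma, SE). For CA9 the average is carried by the siWFDC21P-1 change, since siWFDC21P-2 libraries and their control held 0 to 2 reads. The other 3 of the 7, PDK1, NDRG1 and BNIP3L, also had negative fold changes. On one side of their own control in all 6 siRNA libraries were 2 genes above, PFKL and PGAM1, against 10.8% of all tested genes, and 4 genes below, BNIP3, PFKFB4, PDK1 and SLC16A3, against 7.92% of all. Without the libraries of background 2 these counts were 3 and 4, against 14% and 11.7% of all. PFKFB4 had -0.26 without siNC replicate 1, where its siWFDC21P-1 part comes from the pair in background 2 alone. It had -0.54 to -0.26 with 1 library left out. Without replicate 1 of siWFDC21P-2, 5 of the 38 genes passed, against 9.72% of all tested genes: PFKL (0.98 ± 0.10, adjusted p = 0.00992), PGAM1 (0.74 ± 0.12, 0.0218), PLOD2 (0.68 ± 0.12, 0.0248) and PKM (0.43 ± 0.10, 0.0464) were higher and SLC16A3 (-0.58 ± 0.12, 0.0366) was lower (limma, SE). For PLOD2 and PKM this average joins opposite directions of the siRNAs.

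The siRNAs were compared by the difference of their changes. None of the 38 genes passed, as did 0% of all tested genes (limma; 0 by voom too). At an unadjusted p under 0.05, no difference was positive, against 397 of the 13014 tested genes. At that limit 5 differences were negative, PKM, CA9, ANGPTL4, LDHA and PLOD2, against 2.35% of all. In these the change with siWFDC21P-1 was the lower one, and for CA9, with 0 to 2 reads in background 3, the difference only restates that change. In opposite directions in all libraries were VEGFA, above with siWFDC21P-1 and below with siWFDC21P-2 (1 gene, 4.3% of all tested genes), and PLOD2, ALDOC, GAPDH, ENO1 and PKM, below with siWFDC21P-1 and above with siWFDC21P-2 (5 genes, 3.77% of all). GAPDH left this group with median-ratio scaling. Without replicate 1 of siWFDC21P-2 the difference passed for PLOD2 (-2.29 ± 0.24, adjusted p = 0.0218), PKM (-1.82 ± 0.20, 0.0219) and LDHA (-1.76 ± 0.21, 0.0285), 3 of 38 genes, against 1.25% of all (limma, SE). siWFDC21P-1 and siWFDC21P-2 were measured in different backgrounds, so the siRNA and the background cannot be told apart in these differences.

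The rest of the pathway was read from 4 lists with 78 further genes, of which 62 were tested. None of the 62 passed in any of the 4 comparisons (limma). Of 8 tested genes of oxygen sensing (VHL, HIF1AN, ARNT and others), 4 were below their control in all 3 siWFDC21P-1 libraries, against 20.7% of all tested genes. None was above it in all 3, against 27.9% of all. In all 3 siWFDC21P-2 libraries 3 of the 8 were below it, against 26% of all, and none above, against 26.9% of all. CUL2, the cullin of the VHL ligase, was below in all 6, against 7.92% of all. Of 29 further HIF targets, 8 were below their control in all 6 siRNA libraries, against 7.92% of all tested genes, and 4 above, against 10.8% of all. Of 12 further glycolysis genes, 1 was below in all 6, against 7.92% of all tested genes, and none above, against 10.8% of all. A list of 13 genes covered the mitochondrial pyruvate carriers, pyruvate dehydrogenase with its kinases and phosphatases, and pyruvate carboxylase. Of these 13, 7 were above their control in all 3 siWFDC21P-2 libraries, against 26.9% of all tested genes. The 7 were PDHB, PDHX, DLD, PDK2, PDK3, PDK4 and PC, with neither carrier gene among them. None of the 13 was below it in all 3, against 26% of all. In the siWFDC21P-1 libraries 1 of the 13 was above, against 27.9% of all tested genes, and 2 below, against 20.7% of all. Without replicate 1 of siWFDC21P-2, 8 of the 62 genes passed in the siWFDC21P-2 comparison, against 6.81% of all tested genes, among them DDIT4, an inhibitor of mTORC1 (log2 fold change -2.78 ± 0.18, adjusted p = 0.00334), VLDLR, STC2 and MXI1, which were lower, and GYS1, the muscle glycogen synthase (1.49 ± 0.19, 0.0153), CITED2 and PDK3, which were higher (limma, SE).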

How the data were processed

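RNA of 9 libraries was sequenced after transfection, 3 per group. The authors deposited 1 table of FPKM by Ensembl gene ID for each library. Per the submitters' processing notes, HISAT2 2.1.0, Bowtie2 2.2.3, HTSeq 0.6.0 and hg38 were used; which step each served, the gene annotation and whether strand was kept are not given in the sources used here, so reads of processed pseudogenes (many for GAPDH, PGK1, LDHA, PGAM1 and ENO1) or of antisense genes may be counted in part. The tables list 34377 genes in backgrounds 1 and 2 and 29104 in background 3, with 26636 in common, and symbols matched 26274 of these. FPKM stepped in whole reads (tolerance 0.005 reads) for 26635 common genes, which gave the depth and the exact 95% counting intervals; these cover counting error only.

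Backgrounds were found by average-linkage clustering (1 minus Pearson's r of log2(FPKM + 1), height 0.15) without the genes described. Genes that averaged 1 FPKM or more were fitted in limma 3.58.1 (R 4.3.3; trended empirical Bayes, pseudocount 1, group and background as terms), adjusted over all tested genes. A fold change on this scale understates the change of low genes. A gene was counted above or below its control when all libraries of the siRNA lay on one side of the siNC library of their background. The fit was tested on simulated data. A fitted value was printed for members that passed and, where fewer than 5 passed, for those with the smallest p, up to 5. The labels do not say that replicates are separate cultures, so p-values measure the spread between libraries. In the limma fit this is the spread between siRNA libraries of a background and between the siWFDC21P-1 changes in backgrounds 1 and 2. No background holds more than 1 siNC library, so the spread between control libraries of a background is not in these p-values or SEs. No library was a copy of another. Positions come from GENCODE (GRCh38), promoter windows from RefSeq GRCh38.p14. Alternatives were the naming style or no term in place of background, a replicate block, other pseudocounts, filters and scaling, voom, leaving out each library and leaving out background 2, the last chosen after seeing the data, as were the alternatives for counts of genes on one side. The members, lists and backgrounds were chosen with earlier results of these data known.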

Additional observations from a re-analysis of the deposited data

Results flagged for a closer look

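In 6 of the genes all libraries of siWFDC21P-1 moved one way and all libraries of siWFDC21P-2 the other, against the siNC library of the same background. The log2 difference of the changes (siWFDC21P-1 minus siWFDC21P-2) was 1.06 for VEGFA, -1.78 for PLOD2, -0.69 for ALDOC, -0.47 for GAPDH, -0.48 for ENO1 and -1.51 for PKM. The difference itself was tested in limma, and none of the 6 passed (adjusted p = 0.83 for each). Without replicate 1 of siWFDC21P-2, PLOD2 and PKM passed. GAPDH did not keep its siWFDC21P-2 direction in replicate 3 with median-ratio scaling. Each siRNA was measured in its own background or backgrounds, so that siRNA and background cannot be told apart here.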

How the results depend on the processing

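The number of genes called depended on 1 library. It was 0 in each comparison in every alternative run except without replicate 1 of siWFDC21P-2, where it was 1 for siWFDC21P-1, 6 for siWFDC21P-2, 5 for the average and 3 for the difference; leaving out each library in turn thus gave 0 to 1, 0 to 6, 0 to 5 and 0 to 3. Over all genes, the siWFDC21P-1 comparison called 3 genes, but 26 with voom or a minimum mean of 5 FPKM, 0 with no minimum and 151 without that library, where siWFDC21P-2 called 886 genes and not 0, the average 1265 and not 2, and the difference 163 and not 0; with no minimum these last 3 called 17, 17 and 7. SLC16A3 with siWFDC21P-1 reversed to 0.039 with the naming style in place of background, and to 0.96 with no term or with a replicate block and no background term. PLOD2 with siWFDC21P-2 reversed to -0.22 with no term or with that block. Levels of these genes differ between backgrounds, which those fits do not hold apart. With the replicate block beside background, 0 genes were called; same-numbered libraries did not deviate together (r from -0.68 to 0.67), so the numbers were not taken as pairs. Genes above the control with siWFDC21P-1 were 9 without background 2 or its siRNA library (range 4 to 9), against 39.3% of all tested genes. Those above with siWFDC21P-1 and below with siWFDC21P-2 were 2 (range 1 to 2). Without replicate 1 of siWFDC21P-2, genes above with siWFDC21P-2 were 22 (range 12 to 22) and those below with siWFDC21P-1 and above with siWFDC21P-2 were 11 (range 5 to 11). With fewer libraries any gene meets such a rule more easily. No share of all tested genes is given for the counts of 2, 22 and 11, so these rises cannot be read as particular to these genes. Other counts kept within 1.5 times. WFDC21P with siWFDC21P-2 minus siNC was -0.169 FPKM but 0.31 on log2(FPKM + 1) and 0.888 on log2(FPKM + 0.1), and -1.78 to 1.58 FPKM with 1 library left out (0.366 without siWFDC21P-2 replicate 3, 1.58 without siNC replicate 3); the cause was not tested. Without siNC replicate 3 no siWFDC21P-2 change can be had. Median-ratio scaling used log2 factors of 0.03 for siWFDC21P-2 replicate 3 and -0.11 for siNC replicate 3. Genes under about 0.1 FPKM hold only a few reads.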
